A study of Homo sapiens with 6 samples.

Results

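The cadherins and the non-clustered protocadherins were examined in MDA-MB-231, a cultured human breast carcinoma line of mesenchymal, claudin-low character. Members were the genes whose symbol in the deposited table is CDH or PCDH followed only by digits. This rule found 10 genes of the 15917 listed: the cadherins *CDH1*, *CDH3*, *CDH4*, *CDH11*, *CDH12* and *CDH24*, and the protocadherins *PCDH1*, *PCDH7*, *PCDH9* and *PCDH20*. Total RNA was sequenced from 6 libraries, 2 from cells with the control hairpin shCTRL (genotype label WT), 2 with the hairpin shRBMS3-B3 (RBMS3 KD1) and 2 with shRBMS3-C3 (RBMS3 KD2). Both of the latter hairpins target *RBMS3*, which encodes an RNA-binding protein. Per the study's methods the hairpins were carried by lentivirus into luciferase-labelled cells, which were then selected with puromycin, so each group is a transduced population of 1 cell line, the controls included. What was analysed is 1 value per gene, the authors' mean of normalized counts over the libraries of their comparison, so all levels below pool control and knockdown cells. The comparison is described in the supplement with 2 knockdown and 2 control replicates and no hairpin named, so the mean may rest on 4 of the 6 libraries, and which ones is not stated. Values of single libraries were not analysed here, so the depth per library is unknown, no value below carries a replicate error, and no difference between control and knockdown cells was examined. For the same reason no difference between genes was tested, and the order of 2 genes with similar means is not established.

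Cadherins are transmembrane proteins that join neighbouring cells by calcium-dependent binding of their extracellular repeats. Classical cadherins carry a cytoplasmic tail that binds β-catenin and p120-catenin, and through α-catenin the junction is linked to actin. Epithelial cells hold together mainly through E-cadherin, and its loss is a hallmark of epithelial-mesenchymal transition in carcinoma. Non-clustered protocadherins share the extracellular repeats but not the catenin-binding tail. Their genes are spread over several chromosomes, whereas the clustered protocadherin genes all lie on chromosome 5.

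The family was dominated by a single gene. *CDH4*, which encodes R-cadherin, a classical cadherin best known from the retina and nervous system, had a mean normalized count of 2842 and ranked 1304 among all listed genes. *CDH11*, which encodes OB-cadherin, a type II cadherin of mesenchymal cells and osteoblasts, followed at 720.4. These were the only members above the median of all listed genes, 364. The protocadherin *PCDH7* stood at 330.4 and the type II cadherin *CDH24* at 299.7, both just below that median.

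The other 6 members lay far lower. *PCDH9*, a protocadherin of the nervous system, had a mean normalized count of 77.6. *PCDH1*, a protocadherin of airway epithelium, had 48.6 and *PCDH20* had 47.6. *CDH3*, which encodes the P-cadherin of basal epithelial cells, had 45.7. *CDH1*, the gene of E-cadherin, had 31.6. *CDH12*, a type II cadherin of the brain, was the lowest member at 29.5. The table lists no gene under 26.7, so *CDH1* and *CDH12* stood at its lower edge, at percentiles 3.64 and 2.07 of all listed genes. Of the 10 members, 5 were under a mean normalized count of 50, as were 12.9% of all listed genes. The median of the members, 63.1, lay at percentile 17.0 of the listed genes. From *CDH12* to *CDH4* the means spanned 96.4-fold.

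**Figure D1:**
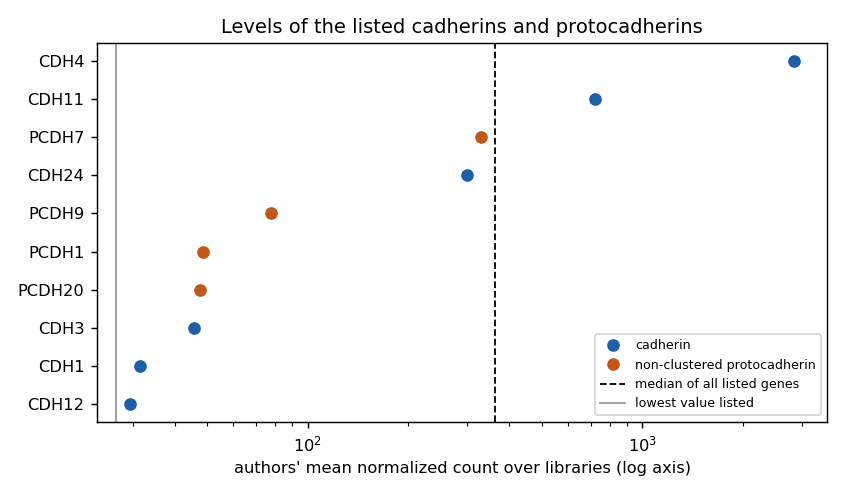
Authors' mean normalized count over libraries (x axis, log scale) of the 10 listed genes, cadherins in blue and non-clustered protocadherins in orange, 1 point per gene and no error since only the mean was analysed. *CDH4* at 2842 and *CDH11* at 720.4 lie right of the dashed line at 364, the median of all listed genes, and *CDH1* and *CDH12* lie next to the grey line at 26.7, the lowest value listed.

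Because longer transcripts yield more fragments, levels were compared between genes per kb of the representative transcript. On this scale *CDH4* had 425.6 mean normalized counts per kb, 3.97-fold the value of *CDH11*, which had 107. *CDH4* made up 59.6% of the level per kb summed over the 10 members. *CDH24* followed with 87.8 per kb, ahead of *PCDH7* with 37.7, since its transcript of 3415 bases is shorter than the 8773 bases of *PCDH7*. The remaining 6 members lay between 6.57 per kb for *CDH1* and 12.5 for *PCDH9*. Among the type I classical cadherins, *CDH4* was 41.5-fold above *CDH3* and 64.8-fold above *CDH1*. Only *CDH4* exceeded the median of all listed genes with an annotation, 136.5 per kb, and its level lay at percentile 77.1. The value for *PCDH9* depends on the gene model: with its longest transcript as length it was 2.75 per kb, the lowest of the family.

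The level of E-cadherin can be set beside other genes that separate epithelial from mesenchymal breast cancer cells. Of 5 mesenchymal marker genes, 3 were listed: *VIM*, the intermediate filament vimentin, with 32189 mean normalized counts per kb, *FN1*, fibronectin, with 742 and *ZEB1*, a repressor of *CDH1*, with 174. *CDH2*, the gene of N-cadherin, was among the 2 without a row. Of 12 epithelial and luminal marker genes 10 were listed, with a median of 185 per kb, above the 136.5 of all annotated genes. *CDH1* itself belongs to this list and was its lowest gene, and the next lowest was *CLDN3*, a claudin of tight junctions, with 51.5. The simple epithelial keratins *KRT8*, *KRT18* and *KRT19* were high, with 9979, 8980 and 4925 per kb. *ERBB2*, a receptor tyrosine kinase, had 342 and the claudins *CLDN4* and *CLDN7* had 274.5 and 96.4. *EPCAM* and *GATA3* were lower, with 69.3 and 55.6 per kb. Of the 10 listed epithelial and luminal genes 5 lay above the median of all annotated genes, so the list was mixed, with *CDH1* at its low end. *CLDN4* was among the genes above that median although the line is known as claudin-low. The hormone receptor genes *ESR1* and *PGR* had no row. Of the 5 basal genes *EGFR* alone was listed, with 1103 per kb. Among endothelial genes *PECAM1* had 10.1 per kb and *KDR* 19.8, and *CDH5*, the endothelial VE-cadherin, had no row. The leukocyte list was represented by *CD68*, with 960 per kb, and the neuronal list by *MAP2*, with 6.89, while the other members of these lists, among them the neuronal cadherins *CDH8* and *CDH18*, had no row. The targeted gene *RBMS3* had a pooled mean normalized count of 271.5, which does not show the knockdown.

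GENCODE release 44 holds 34 protein-coding genes named in this way, 23 cadherins and 11 non-clustered protocadherins, so the listed members were 6 (26.1%) and 4 (36.4%) of them. The other 17 cadherins and 7 protocadherins had no row in the table analysed here, which shows only that no mean at or above 26.7 was available for them. They include the N-cadherin gene *CDH2* and the T-cadherin gene *CDH13*, which encodes a cadherin with a lipid anchor. For comparison, 29 of the 53 protein-coding clustered protocadherins (54.7%) were listed, with a median of 22.5 mean normalized counts per kb. The median of the 6 listed cadherins was 49.0 per kb and that of the 4 non-clustered protocadherins 11.3. These medians lay on either side of that of the clustered genes, with no test of the difference. The genes themselves overlapped: *CDH3*, *CDH12* and *CDH1* lay below 22.5 per kb, with 10.3, 6.92 and 6.57, and *PCDH7* lay above it, with 37.7.

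Several genes of the proteins that bind or link the tails of classical cadherins had higher levels per kb than any member. Of 13 catenin and plakophilin genes 9 were listed. All 9 exceeded the median of the members per kb and 5 exceeded *CDH4*. That median, 11.4 per kb, lay between *CDH3* and *PCDH9*, at percentiles 3.98 and 5.64 of all annotated genes, so nearly all genes exceed it. *CDH4* lay at percentile 77.1 on this scale. Of the 9 genes, *CTNNA1*, the gene of α-catenin, was highest with 3350 mean normalized counts per kb. The lowest was *ARVCF*, a relative of p120-catenin, with 12.1. *CTNNB1*, the gene of β-catenin, had 1839 per kb, 4.32-fold the level of *CDH4* and 2.58-fold that of all members summed. *CTNND1*, the gene of p120-catenin, had 502 per kb, or 0.703 of that sum. The sum includes the non-clustered protocadherins, which lack the catenin-binding tail, so it is not a sum over catenin partners. *CTNNB1* and *CTNND1*, which bind classical cadherins directly, were chosen with their values already known.

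Other components of the junction ranged more widely. Of 13 junction partners 12 were listed and 5 exceeded *CDH4*, itself at percentile 77.1 of all annotated genes per kb. They ran from 10.9 per kb for *CAMSAP3*, a protein of microtubule minus ends, to 2035 for *VCL*, vinculin, which reinforces the link of α-catenin to actin. Of 13 genes that process cadherins or act in their endocytosis 12 were listed, from 3.72 per kb for *PCSK5*, a proprotein convertase, to 630.1 for *APH1A*, a subunit of γ-secretase. Of these 12 genes 10 lay above the median of all annotated genes, as did 8 of the junction partners, 7 of the catenins and plakophilins and 1 of the 10 members.

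**Figure D2:**
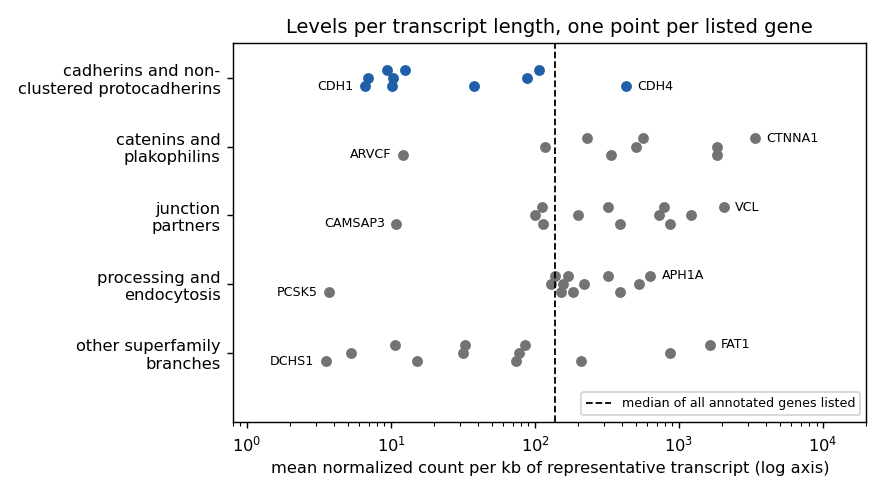
Mean normalized count per kb of representative transcript (x axis, log scale) for each listed gene of 5 lists (rows), members in blue, with the highest and lowest gene of each list named. Only *CDH4* among the members lies right of the dashed line at 136.5, the median of all annotated genes listed, whereas most catenins and junction partners do.

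Gene structure separated the branches. In the representative transcripts the coding sequence of the cadherins was spread over 11 to 16 exons, with 9.24% to 21.2% of it in the largest. The protocadherins had 2 to 5 coding exons, and 59.2% (*PCDH1*) to 95.4% (*PCDH20*) of the coding sequence lay in the largest, against a median of 25.6% over listed coding genes. Genomic spans were long for 5 members, above 100 kb, as for 17.1% of all listed genes. *CDH12* covers 1103 kb of chromosome 5 (GRCh38, chr5:21750673-22853344, minus strand) and *PCDH9* covers 928 kb of chromosome 13 (chr13:66302834-67230445, minus strand). *CDH4* covers 688 kb of chromosome 20 (chr20:61252261-61940617, plus strand) with a spliced transcript of 6678 bases. *CDH3* (chr16:68636189-68727468) and *CDH1* (chr16:68737292-68835537) are neighbours on the plus strand of chromosome 16, separated by 9823 bases, and both were low. *CDH11* lies on the minus strand of the same chromosome (chr16:64943753-65126112).

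Reads can be assigned to a member with certainty only where its sequence is unique. The representative transcript of each member was therefore cut into all stretches of 31 bases, and these were sought on either strand in the GENCODE transcripts of all other genes. *PCDH1* shared none, *CDH4* shared 1 of 6648 and *CDH24* shared 19 of 3385 (0.561%), all of them with *CDH20*. *PCDH20* stood apart: 4600 of its 5075 stretches (90.6%) also occur in the overlapping protein-coding gene ENSG00000197991 on the same strand, which is not listed. The count of *PCDH20* therefore depends on how reads were divided between these gene models. For *PCDH7*, 18.1% of stretches were shared, nearly all with ENSG00000286596, a long noncoding RNA on the opposite strand of its exons. A gene on the opposite strand also shared the most stretches with *CDH1*, *CDH3* and *PCDH9*. The libraries were stranded, so such sharing need not make reads ambiguous where strand was used. *CDH3* shared 7.78% of its stretches with 2789 other genes. *CDH12* shared 7.10% with 37 genes, of which its pseudogene *CDH12P2* had the most, 162 stretches. For *CDH1*, *CDH11* and *PCDH9* the share was 4.83%, 3.50% and 1.94%. An annotated gene overlapped the exons of 7 members, and none of these overlapping genes was listed. The share of all listed genes with such an overlap is not given here, so the count is not a trait of the members.

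The study asked which transcripts RBMS3 regulates through an AUA element in the 3′UTR. This element is 7 bases long: A, G or T, then A or T, then ATA, then A or T, then A, written as DNA. It was sought on the sense strand of the 3′UTR of each representative transcript, with overlapping matches counted. All 10 members had at least 1 match, as did 84.8% of the 12349 listed coding genes with a 3′UTR. At least 3 matches were found in 6 of the 10 members and in 53.1% of all genes. The members held 61 matches in all. Medians over the members were 1856 bases of 3′UTR and 60.8% A+U, against 1378 bases and 57.9% over all genes, and their median density was 1.83 matches per kb against 2.43.

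The members differed widely in this respect. *PCDH7* had 26 matches in 3951 bases, where genes with a 3′UTR within 20% of that length had a median of 9. *PCDH20* had 8 matches in 1558 bases, where genes of like length had a median of 3, and *CDH11* had 13 in 3850 bases against a median of 9. *CDH4*, the most abundant member, had 1 match in 3674 bases, although genes of like length had a median of 8, and its density lay at percentile 15.5 of all genes. Its 3′UTR was also poor in A+U, with 42.6%. *CDH3* had 1 match in 1892 bases against a median of 4. *PCDH9* had 4 matches, *CDH1* and *CDH12* had 3 each, and *PCDH1* and *CDH24* had 1 each.

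**Figure D3:**
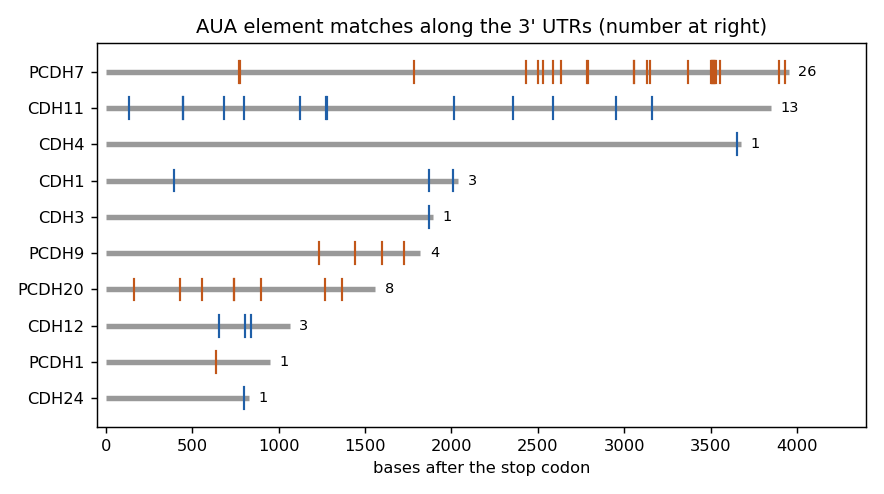
Position of each match to the AUA element (vertical ticks) along the 3′UTR of the representative transcript of each gene (grey bars), in bases after the stop codon (x axis), cadherins in blue and protocadherins in orange, with the number of matches at the right. The single match of *CDH4* lies at the far end of a 3′UTR of 3674 bases, and the 26 matches of *PCDH7* crowd towards its end.

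As written, the 7-base pattern includes sequences that hold AATAAA, the canonical polyadenylation signal. In the paper's motif search among sites bound by tagged RBMS3, AATAAA was the most significant motif. The paper also reports that its AUA motif was enriched among these sites. A further de novo search there, with scrambled sequences as background, returned an AUA motif as well. The matches of *CDH4*, *CDH24* and *CDH3* each held AATAAA and ended 16, 20 and 15 bases before the end of the transcript. They are shown with the last match of *PCDH9*, whose 4 matches all hold AATAAA. Each line gives the sense strand, 5′ to 3′, with the 7 matching bases in capitals, and its position in GRCh38 follows below.
CDH4: tccagagaatGAATAAAgtcccccttt
CDH24: tctaatttcaTAATAAAcaaacacttt
CDH3: gctgatgttgAAATAAAcatttccttc
PCDH9: gactttgacaGAATAAAtatctaaaca

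These windows are chr20:61940585-61940611 on the plus strand for *CDH4*, chr14:23047077-23047103 on the minus strand for *CDH24*, chr16:68700261-68700287 on the plus strand for *CDH3* and chr13:66302913-66302939 on the minus strand for *PCDH9*. In these 4 members every match held AATAAA, as in 22.4% of all genes. A match without AATAAA was found in the other 6 members and in 62.4% of all genes. A match that holds AATAAA and ends within 30 bases of the transcript end was found in 3 of 10 members and in 50.4% of all genes.

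The matches of *CDH1*, *PCDH1* and *PCDH20* held no AATAAA. The 3 matches of *CDH1* and the single match of *PCDH1* are shown, with the first match of *PCDH20*, the second of *CDH11* and the second of *CDH12*, as examples of the other kind. Capitals again mark the matching bases.
CDH1 (first): gttgttttgtGTATATAattttttaaa
CDH1 (second): aagctatatcGAATATAgttctgtgta
CDH1 (last): agatgcatttTTATAAAttttattaaa
PCDH1: tgcagtgtctGTATATAaggaccttgg
PCDH20: aattcagaggTTATAAAatgtgtacag
CDH11: tttaaacttgAAATATAtaatattcag
CDH12: atattcctctTTATAAAgagaggcctc

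The windows of *CDH1* lie on the plus strand at chr16:68833885-68833911, chr16:68835362-68835388 and chr16:68835498-68835524, beginning their matches 395, 1872 and 2008 bases after the stop codon. The others are on minus strands, at chr5:141853386-141853412 for *PCDH1*, chr13:61411063-61411089 for *PCDH20*, chr16:64947138-64947164 for *CDH11* and chr5:21750914-21750940 for *CDH12*. The last match of *CDH1* ended 23 bases before the end of the transcript.

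In *PCDH7*, 13 of the 26 matches held AATAAA and overlapping matches merged into 18 separate stretches. A tandem repeat of 4 bases alone gave 7 overlapping matches, of which the second is chr4:31146345-31146371 on the plus strand.
PCDH7: aagcaaaaatAAATAAAtaaataaata

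A match is a description of the letters and was not compared with binding. *CDH4* and *CDH11*, the most abundant members, had 1 and 13 matches, and *CDH12* and *CDH1*, the least abundant, had 3 each.

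**Figure D4:**
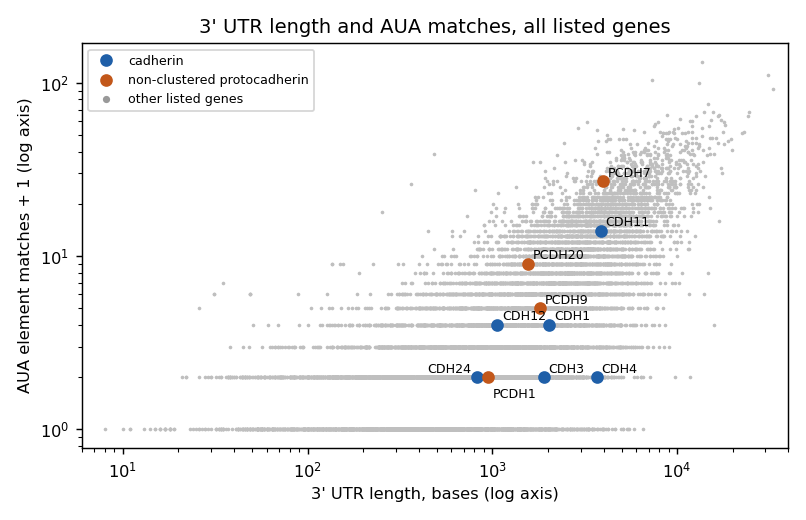
3′UTR length in bases (x axis, log scale) against the number of AUA element matches plus 1 (y axis, log scale) for all 12349 listed coding genes with a 3′UTR (grey) and the 10 members (blue cadherins, orange protocadherins). *PCDH7* with 26 matches and *PCDH20* with 8 lie in the upper part of the cloud at their length, and *CDH4* with 1 match lies at its lower edge.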

How the data were processed

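The authors extracted total RNA, prepared stranded libraries from little input with removal of ribosomal cDNA, and sequenced paired ends. The submitters' processing notes name Salmon, DESeq2 and the build hg38, while for these RNA-seq libraries the versions and annotation are not given in the sources used here. The deposited signal per gene is a mean normalized count over libraries, a single value with no error. The authors' table further holds their own comparison of knockdown with control (log2 fold change, standard error, statistic, p and adjusted p), which was not used. A planned count test could not be run, because it needs counts per library and only the mean over libraries was available. Members and gene lists were chosen with earlier results of these data known, and all members are named. Of the larger lists the highest and lowest gene are named.

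Identifiers were joined to GENCODE release 44 (GRCh38), which holds 15829 of 15917. Lengths are those of the MANE Select or Ensembl canonical transcript. If the authors corrected counts for transcript length, values per kb retain that correction. All 61 element matches were checked against the genome sequence. Genes whose 3′UTR was shorter than 7 bases were left out of the element search. Functions were tested on simulated sequences. Python 3.11.15 was used. Promoter and protein sequences were not analysed here.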

Additional observations from a re-analysis of the deposited data

How the results depend on the processing

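The 4 results with alternatives, all shares of genes, were recomputed under 11 settings chosen at the outset. Of these, 10 stayed within the exact 95% binomial interval of the reported share. With so few genes these intervals are wide, 2.52% to 55.6% for 2 of 10, so staying inside is a weak criterion. With AATAAA in place of the element the share was 70.0%, just above the lower bound of 69.15%. For the order per kb, the share scored was that of members above the median, not the order itself. For the members above the median of listed genes, 2 of 10 as reported, the share ranged from 11.1% with 1 such member left out to 40.0% among the 5 members with a mean of at least 50. The last setting drops low members by the same mean that the share scores, so its smaller denominator comes by construction. The share of members with the AUA element was 100%, and it moved to 60.0% when at least 3 matches were required, a stricter count by construction. With the longest 3′UTR of each gene 9 of 10 members had a match, *PCDH1* being the exception, and the 3′UTR of *PCDH9* grew from 1821 to 24327 bases with 119 matches. For this setting and for AATAAA the share over all genes is not given here. The order of the levels per kb kept *CDH4* first with each length, while the longest transcript put *PCDH9* last and left 4 of 10 members at their rank, and the union of exons also put *CDH24* before *CDH11* and left 2. No paired analysis was possible because only a mean over libraries was analysed. Another normalization, another filter, a replicate left out and each hairpin alone were not run for the same reason.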

Other observations

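Among other branches of the cadherin superfamily, 12 of 27 genes were listed. Of these, 2 exceeded *CDH4*, itself at percentile 77.1 of all annotated genes per kb. *FAT1*, an atypical cadherin of very large size, was highest with 1629 mean normalized counts per kb, or 3.83-fold the level of *CDH4*, and had a mean normalized count of 24066. *DCHS1*, an atypical cadherin of planar cell polarity, was lowest with 3.53 per kb. The median of these 12 genes was 53.1 per kb.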
